A study of Homo sapiens with 6 samples.

Results

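The BCL2 family decides whether the outer mitochondrial membrane stays intact. The genes described here were 10 of its members, 3 anti-apoptotic guards (BCL2, BCL2L1 and MCL1), 2 effectors (BAX and BAK1) and 5 BH3-only genes (BID, BAD, BBC3, PMAIP1 and BCL2L11). They were taken by matching each symbol to its Ensembl identifier among the 61496 features of the count and FPKM tables, and all 10 were found. RNA was sequenced from U251, an established human glioma line, in 3 untreated control libraries and 3 libraries of cells exposed to sevoflurane (Sev), a volatile anesthetic, for 2 h. Both groups were the same line grown in DMEM with fetal bovine serum, and the labels name no other agent and no carrier gas for the controls. The treatment protocol lists Sev at 1.7, 3.4 and 5.1%. The sequenced Sev-treated cells are described in the publication as the 5.1% exposure, and the labels of the libraries do not repeat it. The data come from 1 line. The labels do not say whether the libraries of a group came from separate cultures, and the publication speaks of independent experiments for its quantitative data without naming the sequencing. The p-values measure only the spread between these libraries, which may be technical.

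When cells are stressed, BH3-only proteins bind the anti-apoptotic guards or the effectors directly. Freed BAX and BAK1 proteins assemble into pores in the outer membrane, cytochrome c escapes, and APAF1 with caspase-9 forms the apoptosome that starts the caspase cascade. Glioma cells commonly lean on BCL-xL, the main product of BCL2L1, and on MCL1. The libraries measure RNA, and none of the values below are protein levels.

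The libraries held between 38624292 and 46318311 counts each. The 7 glioma markers checked (among them GFAP, VIM, NES and SOX2) were detected in every library, with summed levels of 7640 to 8550 CPM (counts scaled to a common library size) in the controls and 8680 to 9140 CPM after Sev. Of these markers CD44 rose, SOX2 and S100B fell, and 4 did not pass the test. Summed markers of other lineages stayed low: haematopoietic 5.2 to 5.69 CPM in control against 9.52 to 13.5 CPM in Sev libraries, endothelial 7.32 to 9.29 against 7.73 to 10.5, epithelial 7.13 to 8.23 against 5.07 to 8.28, neuronal 16.3 to 18.2 against 22.6 to 24.9, and oligodendrocyte 5.11 to 7.56 against 7.56 to 8.68. CD3E and STMN2 were at 0 in each library. Of the 2 of 5 haematopoietic markers tested both rose (CD14 and CSF1R), and PECAM1 (1 of 3 endothelial markers tested), SYT1 (1 of 3 neuronal) and MBP (1 of 2 oligodendrocyte) rose, while the 1 epithelial marker tested did not pass. The call of PECAM1 was lost in 5 of the 6 fits that leave out 1 library and with scaling by library size alone (adjusted p = 0.0629 by edgeR), and that of CSF1R in 3 of the 6. The part of these markers in the results below was not tested. In bulk RNA, fewer cells that use a gene and less RNA per cell cannot be told apart.

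After 2 h of Sev, 5 of the 10 members rose and none fell. BCL2L1 rose 3.13-fold and PMAIP1 1.86-fold, and MCL1, BAK1 and BAD rose by 1.31-fold to 1.34-fold. Each side of the family was represented: 2 of 3 guards, 1 of 2 effectors and 2 of 5 BH3-only genes. All 10 members passed the filter on low counts, and a gene was called when the quasi-likelihood test of edgeR gave an adjusted p under 0.05 (Benjamini-Hochberg, over 27514 features). Under that rule 43.7% of all tested features changed, 22.1% rising and 21.5% falling. Among protein-coding genes 45.9% changed and 25.0% rose. The median log2 fold change of the 10 members was 0.40, against -0.0056 over all tested features and 0.038 over protein-coding genes. The Sev and control libraries did not overlap in CPM for 7 of the 10 members, all 7 higher, where 56.5% of tested features did not overlap and 28.3% did so with Sev higher. With the added limit of a log2 fold change beyond 1 in size, 1 of 10 members (BCL2L1) stayed past the threshold, against 23.5% of features (11.4% higher) and 16.7% of protein-coding genes. The 5 of 10 members that changed lay near the 43.7% of all features, while the share that rose lay above its background of 22.1%. Scaled by library size alone, 4665 features rose and 7502 fell instead of 6094 and 5920, and 3 members rose (BCL2L1, MCL1 and PMAIP1) with none falling. With 10 members, nothing particular to the family is read from these shares.

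**Figure D1:**
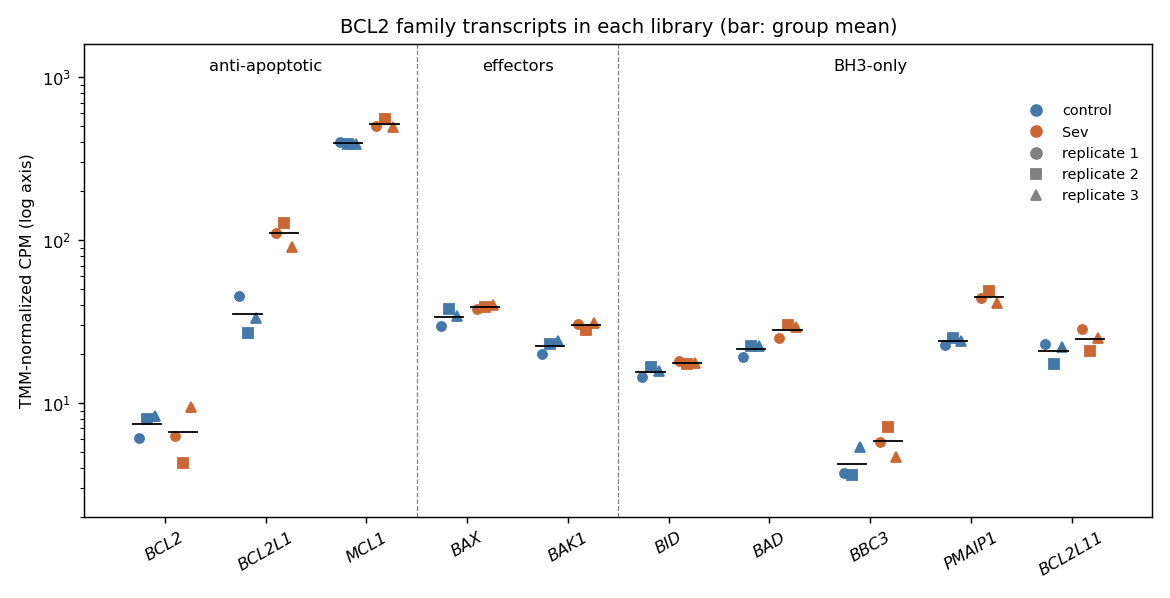
Normalised counts (CPM, vertical axes) of the 10 members in the 3 control and 3 Sev libraries, each point a library and each bar the group mean. The Sev points of BCL2L1 (91.4 to 128 CPM) and PMAIP1 (41.4 to 48.7 CPM) sit well above their control points (26.8 to 45.3 and 22.9 to 25.1 CPM), whereas those of BCL2, BBC3 and BCL2L11 mix.

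Among the guards, BCL2L1 had the largest change of the 10 members. BCL2L1 (ENSG00000171552, chr20:31664452-31723989, GRCh38) encodes BCL-xL, which binds BH3-only proteins and effectors, and a shorter pro-apoptotic form made by alternative splicing. Gene-level counts do not separate these forms. BCL2L1 stood at 45.3, 26.8 and 33.2 CPM in control libraries 1 to 3 and at 111, 128 and 91.4 CPM in Sev libraries 1 to 3. Every Sev library lay above every control, the lowest by a margin larger than the spread among the controls. The log2 fold change was 1.65 with a standard error (SE) of 0.20 and a 95% confidence interval of 1.18 to 2.12, and the adjusted p by edgeR's quasi-likelihood test was 0.000699. With any 1 library left out, the adjusted p stayed between 0.00131 and 0.005.

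BCL2L1 has 2 start windows in the RefSeq promoter table (GRCh38.p14, 250 bases before to 50 bases after a start, minus strand), shown because it changed most of the 10. The first lies at chr20:31723914-31724213 and the second at chr20:31722819-31723118. Capitals mark a CRE core, the letters CGTCA read on either strand, which are the shared part of the sites bound by CREB and ATF proteins. The gene-level counts do not say which start was used.
BCL2L1 first start: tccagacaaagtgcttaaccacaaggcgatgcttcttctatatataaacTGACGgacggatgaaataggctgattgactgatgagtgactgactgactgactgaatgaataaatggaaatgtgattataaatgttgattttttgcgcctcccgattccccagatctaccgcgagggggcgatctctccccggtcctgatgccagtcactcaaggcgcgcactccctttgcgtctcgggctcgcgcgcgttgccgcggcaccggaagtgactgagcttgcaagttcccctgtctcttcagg
BCL2L1 second start: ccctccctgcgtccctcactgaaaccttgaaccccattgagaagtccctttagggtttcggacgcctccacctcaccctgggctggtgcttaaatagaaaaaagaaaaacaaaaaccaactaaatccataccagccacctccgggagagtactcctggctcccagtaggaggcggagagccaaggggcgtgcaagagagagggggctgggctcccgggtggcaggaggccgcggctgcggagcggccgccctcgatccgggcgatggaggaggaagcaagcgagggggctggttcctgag
The first window holds a CRE core whose first base is at position -201 from the start, and the second holds none.

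BCL2L1 shares 1424 exon bases with ABALON, an antisense gene on the other strand. The libraries were strand-specific, but whether the counting used strand is not given in the sources used here, so reads of the pair may not be fully separated. ABALON stood at 13.1, 18.4 and 17.6 CPM in the controls and 34.6, 47.4 and 25.9 CPM after Sev. It rose as well, with a log2 fold change of 1.13 (SE 0.23, adjusted p = 0.00555 by edgeR).

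MCL1 (ENSG00000143384, chr1:150574551-150579738) encodes a short-lived guard that must be made continuously. It stood at 401, 390 and 391 CPM in the controls and 502, 558 and 492 CPM after Sev. The groups did not overlap, and the controls lay close together. The log2 fold change of 0.39 (SE 0.08, 95% confidence interval 0.21 to 0.58) had an adjusted p of 0.00572 by edgeR, and the call held with each library left out.

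BCL2 (ENSG00000171791, chr18:63123346-63320128), the founding guard of the family, was the scarcest of the 10 by FPKM. It stood at 6.1, 8.03 and 8.36 CPM in the controls and 6.34, 4.28 and 9.49 CPM after Sev. The highest and the lowest values both came from Sev libraries, and the groups overlapped. The log2 fold change was -0.16 (SE 0.28) with a 95% confidence interval of -0.81 to 0.49, and the adjusted p by edgeR was 0.673. Without Sev library 2 the estimate was 0.083, so its direction rested on that library.

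The effectors were BAX and BAK1, whose proteins form the pore. BAK1 (ENSG00000030110, chr6:33572547-33580293) stood at 20.1, 23.0 and 24.0 CPM in the controls and 30.8, 28.1 and 31.1 CPM after Sev. The groups did not overlap, and the log2 fold change of 0.42 (SE 0.11, 95% confidence interval 0.18 to 0.67) had an adjusted p of 0.0139 by edgeR. Without Sev library 1 the adjusted p of the same test was 0.0544, and with scaling by library size alone it was 0.0718. Near-identical copies of BAK1 held between 2.46 and 4.84% of the counts of BAK1 and its copies together, so a small part of its reads could be split between them.

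BAX (ENSG00000087088, chr19:48954815-48961798) stood at 29.8, 37.6 and 34.3 CPM in the controls and 37.8, 39.0 and 39.9 CPM after Sev. The lowest Sev library lay just above the highest control. The log2 fold change of 0.20 (SE 0.11) had a 95% confidence interval of -0.046 to 0.44 and did not pass the test (adjusted p = 0.165 by edgeR). On the FPKM scale, which is close to counts scaled by gene length and library total, the groups of BAX and of BID overlapped.

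Among the BH3-only genes, PMAIP1 (ENSG00000141682, chr18:59899948-59904306) moved most. It encodes NOXA, which binds MCL1 in preference to the other guards. It stood at 22.9, 25.1 and 24.1 CPM in the controls and 44.0, 48.7 and 41.4 CPM after Sev. The distance between the groups was larger than the spread within either. The log2 fold change was 0.90 (SE 0.097, 95% confidence interval 0.67 to 1.12), with an adjusted p of 0.000435 by edgeR, the smallest of the 10 members, and the call held with each library left out.

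BAD (ENSG00000002330, chr11:64269830-64284704) encodes a BH3-only protein that binds BCL2 and BCL-xL and is held inactive by phosphorylation. It stood at 19.3, 22.6 and 22.4 CPM in the controls and 25.1, 30.4 and 29.4 CPM after Sev. The groups did not overlap. The log2 fold change of 0.40 (SE 0.12, 95% confidence interval 0.13 to 0.67) had an adjusted p of 0.025 by edgeR, which passed 0.05 when control library 1 or 3 or Sev library 2 or 3 was left out (up to 0.0842) and with scaling by library size alone (0.0992). BAD also shares 404 exon bases with GPR137 on the other strand, whose log2 fold change was 0.10 (adjusted p = 0.608 by edgeR).

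The promoters of PMAIP1 (chr18:59899746-59900045, plus strand), BAD (chr11:64284655-64284954, minus strand) and BAK1 (chr6:33580227-33580526, minus strand) are given because these genes rose beside BCL2L1. They come from the same RefSeq table with the CRE core in capitals.
PMAIP1: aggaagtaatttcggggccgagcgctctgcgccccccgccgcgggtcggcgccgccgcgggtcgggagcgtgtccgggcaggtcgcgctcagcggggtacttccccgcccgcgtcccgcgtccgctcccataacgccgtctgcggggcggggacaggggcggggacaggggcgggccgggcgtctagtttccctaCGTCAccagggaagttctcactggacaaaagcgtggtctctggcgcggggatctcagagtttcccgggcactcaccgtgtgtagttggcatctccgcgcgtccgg
BAD: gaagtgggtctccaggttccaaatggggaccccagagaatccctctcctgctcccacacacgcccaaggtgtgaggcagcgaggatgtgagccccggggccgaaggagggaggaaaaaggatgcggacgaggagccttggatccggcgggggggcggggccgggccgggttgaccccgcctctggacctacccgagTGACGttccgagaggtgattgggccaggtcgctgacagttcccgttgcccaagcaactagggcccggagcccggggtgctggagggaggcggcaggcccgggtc
BAK1: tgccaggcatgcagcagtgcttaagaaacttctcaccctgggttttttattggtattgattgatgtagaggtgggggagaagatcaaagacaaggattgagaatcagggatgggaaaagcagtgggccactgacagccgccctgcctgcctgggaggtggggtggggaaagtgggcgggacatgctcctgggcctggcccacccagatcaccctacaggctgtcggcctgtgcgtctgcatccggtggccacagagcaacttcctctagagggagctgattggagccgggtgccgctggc
The core begins at position -55 in PMAIP1 and -54 in BAD, and BAK1 has none. BAD has a second, overlapping window in the table (chr11:64284616-64284915), in which the same core lies at -93 from that start. The table held windows for 9 of the 10 members, all but MCL1. The CRE core was found in 5 of these 9 (BCL2, BCL2L1, BAX, BAD and PMAIP1), against 28.4% of 27305 genes in the table. Of the 4 members that rose and have a window, 3 held it (BCL2L1, BAD and PMAIP1), and of the 5 that did not pass, 2 held it (BCL2 and BAX). Whether the letters go with the rise was not tested. The whole CRE (TGACGTCA) was in 0 of 9 members and 2.25% of genes, and the amino acid response element letters (TGATGNAA) were in 0 of 9 and 4.46% of genes. The GC box (GGGCGG) was in 7 of 9 and 48.3% of genes. CCAAT was in 5 of 9 and 39.7% of genes, the E-box CACGTG was in 3 of 9 and 8.77% of genes, and TATAAA was in 1 of 9 and 14% of genes. All motifs were searched on both strands, and a match is only a run of letters.

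The other BH3-only members did not pass the test. BID (ENSG00000015475, chr22:17734138-17774770), whose protein is cut by caspase-8 and links death receptors to mitochondria, stood at 14.4, 16.7 and 15.7 CPM in the controls and 18.1, 17.4 and 17.7 CPM after Sev. The CPM groups did not overlap, but the log2 difference was 0.19 (95% confidence interval -0.059 to 0.43, adjusted p = 0.19 by edgeR). BBC3 (ENSG00000105327, chr19:47220822-47232766), which encodes PUMA, a protein that binds all of the guards, stood at 3.74, 3.63 and 5.36 CPM in the controls and 5.81, 7.19 and 4.69 CPM after Sev. Its groups overlapped, and its log2 difference of 0.47 (SE 0.23) had the wide interval of -0.047 to 0.99 and an adjusted p of 0.125 by edgeR. BCL2L11 (ENSG00000153094, chr2:111119378-111168447), which encodes BIM, a direct activator of the effectors, stood at 23.1, 17.4 and 22.1 CPM in the controls and 28.7, 21.0 and 25.1 CPM after Sev. Its groups overlapped too, with a log2 difference of 0.25 (SE 0.15, 95% confidence interval -0.10 to 0.61, adjusted p = 0.217 by edgeR). BCL2L11 shares 727 exon bases with MIR4435-2HG on the other strand. That gene rose from 71 to 101 CPM in the controls to between 203 and 214 CPM after Sev, with a log2 fold change of 1.27 and an adjusted p of 0.000325 by edgeR, and any spill of its reads into BCL2L11 was not tested.

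**Figure D2:**
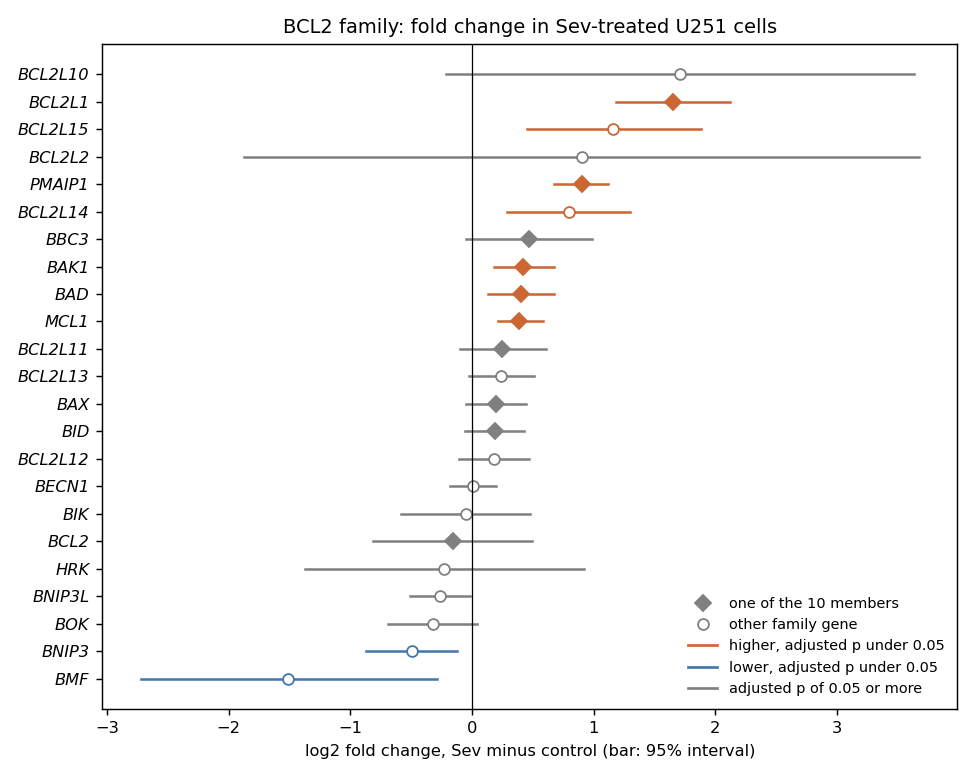
Log2 fold change of Sev against control (horizontal axis) with its 95% confidence interval for the members and the other BCL2 family genes, sorted by fold change. BCL2L1 (1.65) and PMAIP1 (0.90) lie farthest to the right among the members, and the intervals of BCL2, BAX, BID, BBC3 and BCL2L11 include 0.

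Per gene length, MCL1 was by far the most abundant member in both groups. In the controls its FPKM was 76.6 ± 2.72 (SD, n = 3), followed by BAX (11.1 ± 1.06), BAD (10.6 ± 0.733), PMAIP1 (9.12 ± 0.238), BCL2L1 (9.01 ± 2.6) and BAK1 (8.6 ± 0.667). BID (2.96 ± 0.16), BCL2L11 (2.66 ± 0.441), BBC3 (1.12 ± 0.254) and BCL2 (0.536 ± 0.0793) were lower. The FPKM values of the neighbours BAX and BAD, PMAIP1 and BCL2L1, BCL2L1 and BAK1, and BID and BCL2L11 overlapped, so their order is not settled. After Sev the FPKM of MCL1 was 90.9 ± 3.41, and BCL2L1 (25.4 ± 3.38) and PMAIP1 (15.4 ± 0.748) stood above BAD (12.7 ± 1.25), BAX (11.6 ± 0.592) and BAK1 (10.5 ± 0.914). In the Sev libraries the overlapping neighbours were BAD and BAX, BAX and BAK1, and BID and BCL2L11.

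As shares of the summed FPKM of the 10 members, MCL1 gave 58.9, 57.6 and 57.1% in control libraries 1 to 3 and 51.8, 52.5 and 52.3% in Sev libraries 1 to 3. BCL2L1 gave 8.75, 5.21 and 6.39% in the controls and 15.1, 15.9 and 12.8% after Sev. So within the family MCL1 gave a smaller share of the RNA in each Sev library than in any control, and BCL2L1 a larger one. The guards together gave 67.9, 63.3 and 63.9% in the controls and 67.1, 68.5 and 65.5% after Sev, which overlap. The effectors gave 13.2, 16.1 and 15.4% against 12.9, 11.4 and 13.7%, and the BH3-only genes 18.8, 20.6 and 20.6% against 20.1, 20.1 and 20.8%. These 2 shares overlapped between the groups as well. The summed FPKM of the 10 genes rose from 135, 129 and 133 to 171, 181 and 171. No test was run on these shares.

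**Figure D3:**
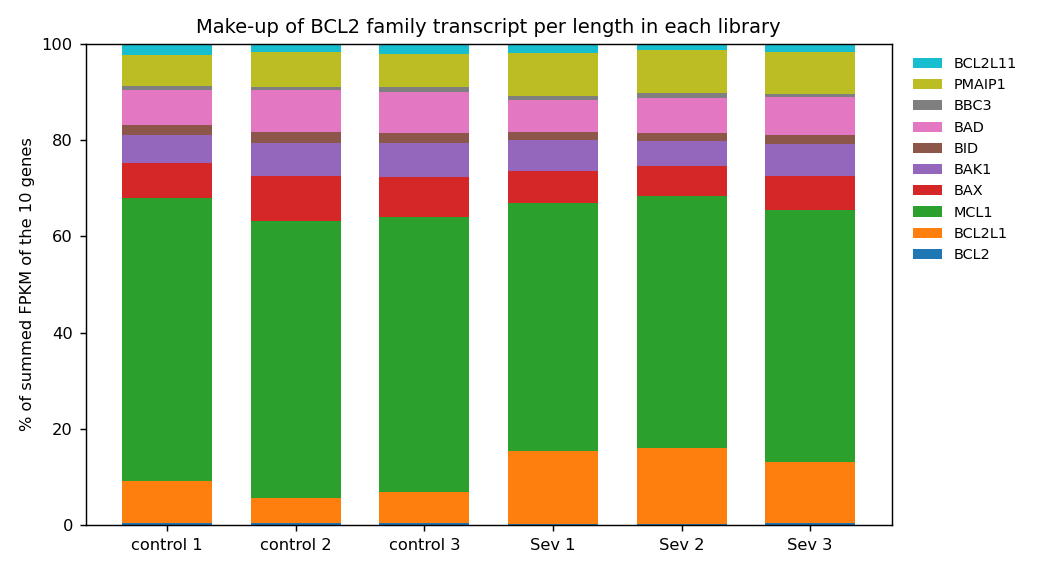
Share of the summed FPKM of the 10 members (vertical axis, percent) taken by each member in each of the 6 libraries. MCL1 takes 57.1 to 58.9% in the controls and 51.8 to 52.5% after Sev, and BCL2L1 5.21 to 8.75% against 12.8 to 15.9%.

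The ratio of BAX to BCL2, often used as a summary of the balance of the family, was 22.4, 21.5 and 18.8 by FPKM in the controls and 27.4, 41.5 and 19.2 after Sev. Sev library 3 lay within the control range. On the log2 scale the means were 4.38 ± 0.13 and 4.8 ± 0.56 (SD, n = 3 each). The difference of 0.42 was not past the spread between libraries (exact permutation test, two-sided p = 0.3, where the smallest p that 3 against 3 can give is 0.1). It ranged from 0.14 without Sev library 2 to 0.69 without Sev library 3, and Sev library 2 had both the highest ratio and the lowest BCL2 level.

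A further 14 genes of the wider family were looked at, of which 13 passed the filter. Of these 2 rose, 2 fell and 9 did not pass the test, where 43.7% of all features were called, and the median log2 fold change was 0.0066. BCL2L14 rose from 1.95 ± 0.444 to 3.39 ± 0.342 CPM (SD, n = 3), a log2 difference of 0.80 (SE 0.22, adjusted p = 0.0205 by edgeR), and BCL2L15 from 1.27 ± 0.3 to 2.84 ± 0.936 CPM, a log2 difference of 1.16 (SE 0.31, adjusted p = 0.0177 by edgeR). Both are little-studied members at low levels. The call of BCL2L15 was lost in 3 of the 6 fits that leave out 1 library (adjusted p up to 0.0656 by edgeR), and that of BCL2L14 in 1 of 6, the fit without Sev library 1. The genes that fell were BMF, which encodes a BH3-only protein tied to the cytoskeleton, and BNIP3, which encodes a mitophagy receptor. BMF stood at 7.23, 5.22 and 1.52 CPM in the controls and 2.26, 1.44 and 1.21 CPM after Sev, which overlap. Its adjusted p of 0.0488 by edgeR was lost in 5 of the 6 fits that leave out 1 library. BNIP3 fell by 0.49 on the log2 scale, from 193 ± 41.5 to 137 ± 16.2 CPM, and its adjusted p of 0.0397 by edgeR was lost in 5 of 6 as well. The related receptor BNIP3L had a log2 difference of -0.26 (adjusted p = 0.0806 by edgeR), BOK, which encodes a further effector, -0.32 (0.135), and BECN1, which encodes an autophagy protein with a BH3 stretch, 0.0066 (0.956). BCL2A1 did not pass the filter.

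Another guard of this wider list, BCL2L2, which encodes BCL-w, could not be judged. Its levels were 3.03, 34.4 and 3.03 CPM in the controls and 1.33, 35.3 and 38.4 CPM after Sev, and its raw counts were 128, 1362, 147, 50, 1326 and 1522. Each group held libraries at both levels, and the log2 difference of 0.90 had an SE of 1.2 and an interval of -1.87 to 3.67 (adjusted p = 0.573 by edgeR). Of 10096 features with a mean of at least 500 counts, BCL2L2 was 1 of 9 whose highest library exceeded the lowest at least 5-fold in both groups. BCL2L2 shares 813 exon bases with the read-through locus BCL2L2-PABPN1, and PABPN1 shares 653 bases with it. The read-through locus stood at 4.96, 7.32 and 2.02 CPM in the controls and 10.1, 11.6 and 10.5 CPM after Sev (log2 fold change 1.18, adjusted p = 0.041 by edgeR, lost in 4 of 6 fits that leave out 1 library). PABPN1 stood at 78.8, 80.8 and 73.0 CPM against 73.5, 66.5 and 66.7 CPM. How reads were divided among these overlapping loci was not tested.

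**Figure D4:**
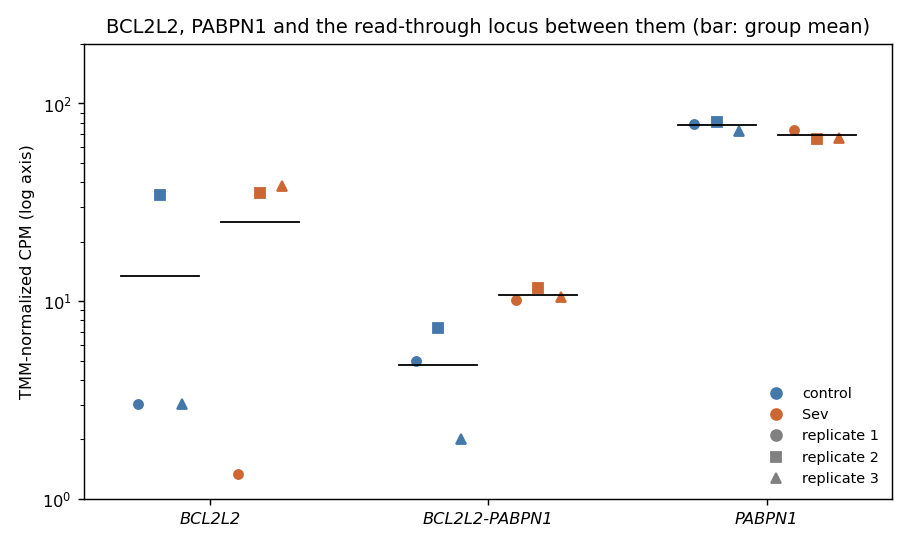
Normalised CPM (vertical axis) of BCL2L2, the read-through locus BCL2L2-PABPN1 and PABPN1 in the 6 libraries, with points for libraries and bars for group means. BCL2L2 lies at 34.4 to 38.4 CPM in 3 libraries and at 1.33 to 3.03 CPM in the other 3, and both groups hold libraries of each kind, whereas PABPN1 lies between 66.5 and 80.8 CPM.

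Among the genes that act downstream of the pore, more fell than rose. Of 15 genes of the caspase pathway, all tested, 2 rose, 4 fell and 9 did not pass, with a median log2 fold change of -0.055, where 22.1% of all features rose and 21.5% fell. APAF1, the scaffold of the apoptosome, stood at 27.7, 30.9 and 36.2 CPM in the controls and 14.5, 15.7 and 16.1 CPM after Sev. The groups were far apart and the log2 fold change was -1.03 (SE 0.12, adjusted p = 0.000628 by edgeR). CASP9, the caspase activated on that scaffold, fell from 13.5 ± 1.33 to 8.63 ± 0.986 CPM (SD, n = 3), a log2 fold change of -0.65 (SE 0.14, adjusted p = 0.00754 by edgeR). Both calls held with each library left out. HTRA2, a mitochondrial protease that was named after its values were seen, fell by 0.38 on the log2 scale (adjusted p = 0.0379 by edgeR), and its call was lost in 5 of the 6 fits that leave out 1 library. CYCS, which encodes cytochrome c, had a log2 difference of 0.22 (adjusted p = 0.0631 by edgeR). BIRC3, an inhibitor of apoptosis, rose by 0.75 on the log2 scale from 1.88 ± 0.228 CPM, and BIRC5, which encodes survivin and is also a mitotic gene, rose by 1.25 (adjusted p of 0.0171 and 0.0144 by edgeR). BIRC5 stood at 45.4, 19.6 and 49.4 CPM in the Sev libraries against 13.9 to 18.7 CPM in the controls, and Sev library 2 lay close to the controls. Each of these 2 calls was lost in 2 of the 6 fits that leave out 1 library.

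Of 7 genes listed as outer membrane partners, 3 rose and none fell, with a median of 0.34. Over all tested features 43.7% were called and 22.1% rose. Not every gene of this list encodes a protein of the outer membrane. Scaled by library size alone, 2 of the 7 rose and 1 fell. VDAC2, a channel that holds BAK1 protein in the membrane, rose from 90.2 ± 10.2 to 129 ± 3.38 CPM (SD, n = 3), a log2 difference of 0.51 (SE 0.096, adjusted p = 0.00415 by edgeR). SLC25A6, an adenine nucleotide carrier, rose by 0.48 (adjusted p = 0.0034 by edgeR), and TMBIM6, which encodes BAX inhibitor 1, by 0.49 (0.0274, lost in 4 of 6 fits that leave out 1 library).

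Of 9 genes that set the turnover of MCL1 protein, 2 rose and 1 fell, with a median of 0.09, against 43.7% of all features called. MARCHF5, a ubiquitin ligase of the outer membrane, stood at 47.2, 50.1 and 52.5 CPM in the controls and 83.5, 88.0 and 85.5 CPM after Sev. The groups were widely separated, with a log2 fold change of 0.78 (SE 0.079, adjusted p = 0.000345 by edgeR). RNF7, a RING subunit that works with CUL5, rose by 0.56 (adjusted p = 0.021 by edgeR, lost in 4 of 6 fits that leave out 1 library). BTRC, a substrate receptor of an SCF ligase, fell by 0.43 on the log2 scale (adjusted p = 0.00371 by edgeR). The ligase HUWE1 and the deubiquitinase USP9X had log2 differences of -0.078 and -0.047 (adjusted p of 0.46 and 0.638 by edgeR).

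Of 13 transcription factors known to control members of the family, 5 rose and none fell, with a median of 0.10, beside the same 43.7% called and 22.1% higher over all features. ATF4, which drives PMAIP1 in the integrated stress response, rose from 179 ± 7.27 to 377 ± 31.1 CPM (SD, n = 3), a log2 fold change of 1.08 (SE 0.086, adjusted p = 0.000147 by edgeR). DDIT3, which encodes CHOP, rose by 1.07 (SE 0.12, adjusted p = 0.00049 by edgeR) and ATF3 by 0.71 (SE 0.077, adjusted p = 0.000435 by edgeR). These calls held with each library left out. E2F1 and FOXO3, named after their values were seen, rose by 0.60 and 0.46 (adjusted p of 0.00231 and 0.0102 by edgeR). Across these 5 lists, 57 of 58 genes were tested, 14 rose and 7 fell. With scaling by library size alone, 12 rose and 13 fell, since MTCH2, HUWE1, USP9X, CASP6, BOK and BNIP3L then passed as lower and the calls of TMBIM6 (adjusted p = 0.0947 by edgeR) and RNF7 (0.0684) were lost. Under that scaling the list medians were -0.13 for the wider family, -0.21 for the caspase pathway and 0.20 for the outer membrane partners. Those of MCL1 turnover and the transcription factors were -0.049 and -0.035, beside a median of -0.15 over all features.

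**Figure D5:**
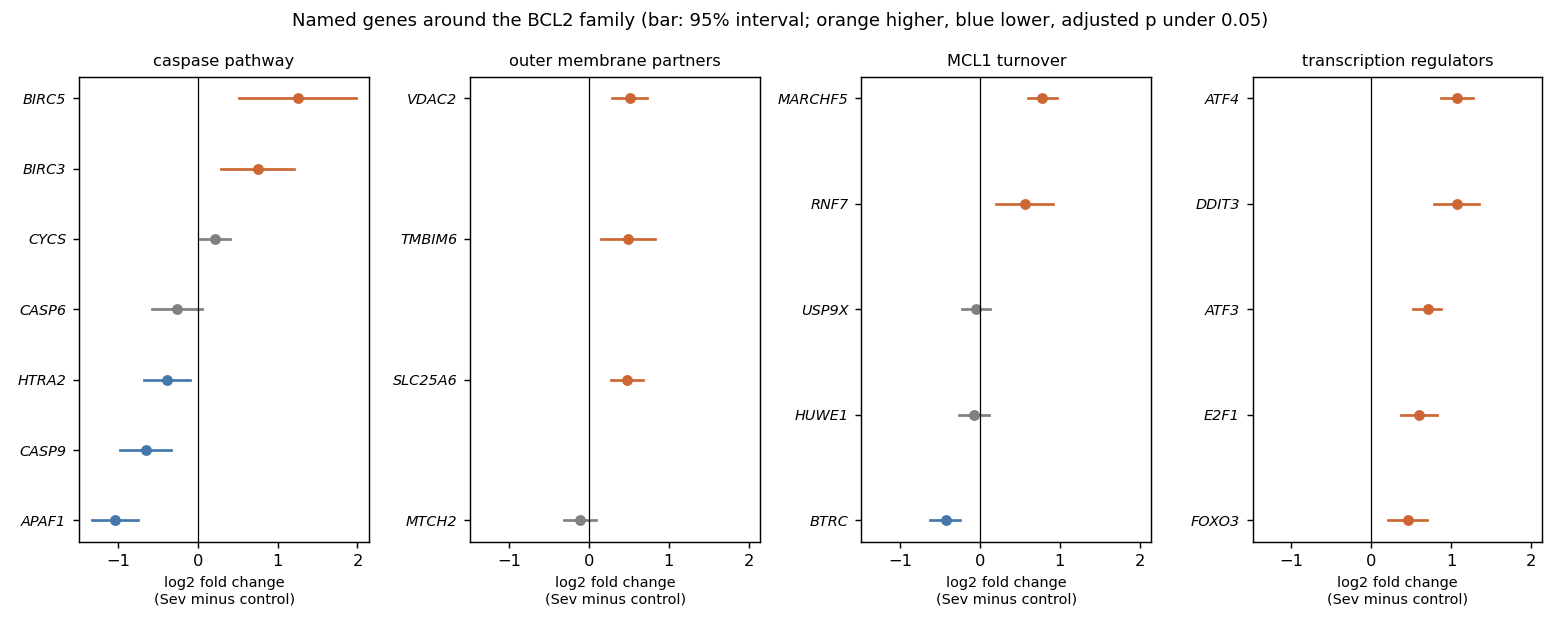
Log2 fold change of Sev against control (horizontal axis) with its 95% confidence interval for the genes named here of the caspase pathway, outer membrane partners, MCL1 turnover and transcription regulators, not every gene of those lists. APAF1 (-1.03) and CASP9 (-0.65) lie to the left of 0, and ATF4 (1.08), DDIT3 (1.07) and MARCHF5 (0.78) to the right.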

How the data were processed

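RNA depleted of ribosomal RNA was sequenced in 3 control and 3 Sev libraries with a strand-specific paired-end protocol. The authors deposited raw counts per feature and FPKM values, and the submitters' processing notes name bcl2fastq 2.19, featureCounts and hg18, without roles. Most identifiers matched GENCODE 29 (GRCh38), from which gene positions were taken. Symbols came from a separate list of gene names, with GENCODE names where that list had none. The deposited FPKM was found to be close to counts scaled by length and library total. For some scarce features this relation varied between libraries. The members and gene lists were chosen with earlier results of these data known. The main test was edgeR 4.0.16 (R 4.3.3) quasi-likelihood on the counts as deposited, with TMM scaling, the default expression filter and Benjamini-Hochberg adjustment over 27514 features. CPM values are TMM-normalised, and the 95% intervals of log2 fold changes come from the same fit. DESeq2 1.42.0, limma 3.58.1 on log2 of FPKM plus 1 or 0.1, other scalings and filters, a replicate block and fits without 1 library were alternatives. In other lists, up to 3 genes in each direction were named by smallest p, along with genes of known role in the pathway. In simulated counts for 27514 genes with 200 changed, edgeR recovered 98% of the 4-fold changes and 73% overall. Far more features changed here than in the simulation. Changes as small as those of MCL1, BAK1 and BAD were not simulated, so this recovery does not carry over to them. The counts of the lists include genes whose own results are not reported here.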

Additional observations from a re-analysis of the deposited data

How the results depend on the processing

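The count of members that rose, 5, was 3 with library size scaling only and 3 in each limma fit of FPKM values, where BAK1 and BAD were lost, and it ranged from 4 to 5 when 1 library was left out. Scaling by library size moved the median log2 fold change of all tested features to -0.15, and relative to that shift BCL2L1 was at 1.64, PMAIP1 at 0.90, MCL1 at 0.40, BAK1 at 0.43 and BAD at 0.41. BCL2 reversed to 0.083 without Sev library 2 (range without 1 library -0.49 to 0.083). In the other lists, the count of genes that rose, 14, was 8, 8 and 7 in limma fits of log2(FPKM + 1), log2(FPKM + 0.1) and log2(FPKM + 1) without a filter, and 9 to 14 with 1 library left out. The count that fell, 7, was 13 with library size scaling, 4 without the expression filter, 12, 13 and 11 in the same limma fits, and 3 to 7 with 1 library left out. For the members, 135 of the values under alternatives kept direction and side of the threshold, 14 kept direction only (BAD 9 and BAK1 5) and 1 reversed. The share of all features called ranged from 23.5 to 46.4%.

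Libraries with the same number did not deviate together (correlations of -0.00723, 0.00351 and 0.027), so the numbers were not taken as pairs. With a replicate block 10249 features were called instead of 12014, the members that rose stayed at 5, and in the other lists 14 rose and 5 fell. BCL2 and BBC3 had the fewest counts of the members.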

Other observations

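ID1, an inhibitor of differentiation that lies 57.9 kb from BCL2L1 on chromosome 20, was looked at after its values were seen. It stood at 110, 98.9 and 112 CPM in the controls and 451, 579 and 378 CPM after Sev, and its log2 fold change was 2.13 (SE 0.16, adjusted p = 0.000112 by edgeR). TPX2, a mitotic spindle gene 15.3 kb from BCL2L1, had a log2 difference of -0.07 (adjusted p = 0.614 by edgeR). The antisense gene BCL2L1-AS1 had a log2 difference of 0.74 (adjusted p = 0.0798 by edgeR).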
